A study of Mus musculus with 9 samples.

Results

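Killer lectin-like receptors are surface proteins of natural killer (NK) cells and of activated T cells, and the expression of 5 of their genes, Klrb1f, Klrb1c, Klrd1, Klrk1 and Klrc1, was measured by RNA-Seq in murine Tc17 cells, which are CD8+ T cells that produce IL-17. The genes were taken by symbol from a table of 41388 genes, and they had been selected on their measured values in these same libraries, so that their differences between groups are given as a description without a test. Of the 5 genes, 4 reached the minimum for a test, a normalized count of 10 on average over the 9 libraries, as did 11599 genes in all. Klrb1c was below it.

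All libraries came from naive CD62L+CD44-CD8+ T cells sorted from lymph node and spleen of young adult wild-type C57BL/6 mice. The cells were primed for 2 days with plate-bound anti-CD3 (5 µg/ml), anti-CD28 (0.5 µg/ml), IL-2 (50 U/ml), TGF-β (0.5 ng/ml), IL-6 (30 ng/ml) and anti-IFN-γ (5 µg/ml). Cultures with the solvent DMSO at 0.2% (Ctrl), with 20 µM dimethyl fumarate (DMF), or with 20 µM DMF and 50 µM glutathione (DMF + GSH) gave 3 libraries each. DMF is a drug that binds glutathione, and the third group asks what remains of its effect when glutathione is supplied. The labels number the replicates 1 to 3, place replicate 1 in preparation batch 1 and replicates 2 and 3 in batch 2, and do not say whether the numbers are separate animals, so that the spread between them may be partly technical. Whether a sorted population of many cells held fewer cells of a kind or less RNA per cell cannot be told apart in such libraries.

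The genes sit in the natural killer gene complex, a cluster of C-type lectin-like receptor genes. Klrd1 encodes CD94, which pairs with NKG2A from Klrc1 to an inhibitory receptor for the non-classical MHC molecule Qa-1b, and with products of Klrc2 or Klrc3 to activating ones. Klrk1 encodes NKG2D, an activating receptor for stress-induced ligands that signals through the adaptor DAP10 from Hcst and serves as a costimulatory receptor on CD8+ T cells. Klrb1f and Klrb1c encode the NKR-P1 receptors NKR-P1F and NKR-P1C, the latter known as NK1.1, the marker used to stain NK cells of this mouse strain. Some NKR-P1 receptors, NKR-P1F among them, recognise proteins of the neighbouring Clec2 genes.

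In the GRCm38 annotation of GENCODE vM21 all 5 genes were protein-coding genes of chromosome 6. Klrb1c (ENSMUSG00000030325) ran from 128778485 to 128789215 on the reverse strand and Klrb1f (ENSMUSG00000030154) from 129045901 to 129057464 on the forward strand. Klrd1 (ENSMUSG00000030165) lay from 129591782 to 129598775 on the forward strand. On the reverse strand followed Klrk1 (ENSMUSG00000030149) from 129610323 to 129623864 and Klrc1 (ENSMUSG00000030167) from 129666015 to 129678973. Among the 4 members above the minimum, Klrb1f and Klrk1 had the largest differences between DMF and Ctrl, in opposite directions, and the 250 bases upstream of their starts (RefSeq, GRCm38.p6) are printed to show the DNA next to either start. The window of Klrb1f is chr6:129045651-129045900 on the forward strand and that of Klrk1 is chr6:129623865-129624114 on the reverse strand, each 5′ to 3′. The match to the RUNX core TGTGGT in Klrk1 is in capitals, and Klrb1f held none.
Klrb1f: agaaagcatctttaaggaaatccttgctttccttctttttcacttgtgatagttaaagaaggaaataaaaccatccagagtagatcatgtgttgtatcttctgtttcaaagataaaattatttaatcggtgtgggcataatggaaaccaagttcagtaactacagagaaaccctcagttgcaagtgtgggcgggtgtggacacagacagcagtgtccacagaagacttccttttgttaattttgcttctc
Klrk1: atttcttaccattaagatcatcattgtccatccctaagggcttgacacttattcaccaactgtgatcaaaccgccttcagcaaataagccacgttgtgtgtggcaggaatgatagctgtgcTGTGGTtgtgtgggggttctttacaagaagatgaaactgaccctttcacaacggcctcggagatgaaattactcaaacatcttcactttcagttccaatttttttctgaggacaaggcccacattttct

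Short motifs of transcription factors known in CD8+ T cells were searched on both strands of these windows, TCACACC (T-box half-site), GTAAACA (FOXO core), TTCNNNGAA (STAT palindrome) and TGTGGT (RUNX core). Klrb1f held none of these letters in this window. Klrk1 held 1 RUNX core, whose first base was at −129 from the start, and Klrb1c and Klrc1 held 1 each, at −89 and −87. The non-members Klrc2 and Klre1 were searched too and held RUNX cores, at −36 and −9 for Klrc2 and at −229 for Klre1. No window was available for Klrd1, so it was not searched. Positions count from the RefSeq start, which differs from the GENCODE start for Klrb1c, Klrc2 and Klre1. Of 27025 mouse promoter windows of this length 14.2% held a RUNX core, 7.18% a STAT palindrome, 3.31% a T-box half-site and 3.09% a FOXO core.

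How well single reads of 50 bases identify each gene was read from the annotated transcripts. No 50-base stretch of Klrb1f, Klrd1 or Klrk1 occurred in a transcript of another gene. For Klrc1 38.6% of the stretches did, 36.6% in Klrc2, and the longest unbroken coding run that both genes share has 124 bases. It is printed because reads from it cannot be assigned to either gene, and it spans a splice site within chr6:129677203-129678299 (GRCm38, reverse strand of Klrc1).
Klrc1 and Klrc2: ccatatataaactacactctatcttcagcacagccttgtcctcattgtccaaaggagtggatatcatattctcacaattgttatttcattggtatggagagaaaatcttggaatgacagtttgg

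Counts of Klrc1, Klrc2 and Klrc3 are therefore uncertain to the extent that the counting dropped or shared such reads. Klrb1c shared 17% of its stretches with other genes and 413 exon bases with Gm44511 on the same strand.

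The libraries held 7671772 to 14511926 reads, and Ctrl replicate 3 was the shallowest. The 5 CD8+ T cell markers (Cd8a, Cd8b1, Cd3e, Cd3g, Trac) summed to 22829 to 27182 normalized counts in Ctrl, 22823 to 27477 with DMF and 22638 to 28820 with DMF + GSH. Within this sum Cd8a differed by 0.31 and Trac −0.20 on the log2 scale with DMF, both without overlap with Ctrl, and Cd3g (−0.53), Cd3e (−0.23) and Cd8b1 (0.06) overlapped. Of 10 NK cell markers only Nkg7 and Gzma, which activated CD8+ T cells also express, reached the minimum, and all 10 summed to 1369 to 1681 in Ctrl, 1797 to 2386 with DMF and 1338 to 1676 with DMF + GSH. The other 8 summed to 11.1 to 25.6 in Ctrl, 3.87 to 5.29 with DMF and 3.89 to 11.0 with DMF + GSH, and Klra8 and Klra9 had no read in any library. In Ctrl replicate 3 the myeloid gene Lyz2 stood at 119 normalized counts and Csf1r at 58.3, and the summed myeloid markers were 76.9 to 267 in Ctrl, 58.2 to 72.8 with DMF and 87.5 to 91.3 with DMF + GSH. Of the CD4+ T cell markers Cd4 had at most 4 reads in a library, and Foxp3, which was 559 to 913 in Ctrl, 1035 to 2456 with DMF and 463 to 935 with DMF + GSH, made up nearly all of their sum. The B cell markers summed to 3766 to 4468 in Ctrl, 4153 to 4796 with DMF and 3721 to 4299 with DMF + GSH, nearly all of it Ighm. For the members, the difference of DMF from Ctrl is also given without Ctrl replicate 3.

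Klrb1f was the member with the largest difference. In Ctrl replicates 1, 2 and 3 it had 37.4, 55.7 and 21.3 normalized counts, which rest on 36, 60 and 15 reads. With DMF it had 1.06, 3.42 and 6.77, from 1, 4 and 7 reads. With DMF + GSH it had 15.4, 37.9 and 13.6, from 14, 51 and 14 reads. Every DMF library was thus below every Ctrl and every DMF + GSH library, whereas Ctrl and DMF + GSH overlapped and replicate 2 was the highest of both.

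The mean of Klrb1f was 38.2 ± 17.2 normalized counts (SD, n = 3) in Ctrl, 3.75 ± 2.87 with DMF and 22.3 ± 13.5 with DMF + GSH. The DMF mean was 9.83% of the Ctrl mean and the DMF + GSH mean 58.4% of it. On the log2(normalized count + 1) scale the difference of DMF from Ctrl was −4.22, −3.68 and −1.52 within replicate numbers 1, 2 and 3, on average −3.14 ± 1.43 (SD, n = 3). Among the 11599 genes of the fit, 2 had a lower value. Replicate 3, with the lowest Ctrl and the highest DMF count, had the smallest difference. With so few reads in DMF the size depended on the pseudocount, and it was −3.34 with 0.5 and −2.43 with 4 in place of 1. Without Ctrl replicate 3 it was −3.65.

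Between DMF + GSH and DMF the differences of Klrb1f were 2.99, 3.13 and 0.91, on average 2.35 ± 1.25 (SD, n = 3), and 5 genes had a higher value. Against Ctrl, DMF + GSH stayed lower within each number, by −1.23, −0.55 and −0.61, on average −0.80 ± 0.38 (SD, n = 3), with 47 genes below it. Leaving out Ctrl replicate 3 gave −1.30 for the last value, leaving out Ctrl replicate 1 gave −0.42 and leaving out DMF + GSH replicate 3 gave −0.39. The sum of the 8 scarce NK markers above was also lower with DMF than in Ctrl. Its range with DMF overlapped that with DMF + GSH, and the sum of all 10 was highest with DMF. Of the 8, Itga2 had the largest mean in Ctrl (9.75, and 1.95 with DMF). In Ctrl replicate 3, which held the myeloid genes, Tyrobp stood at 9.95 and Fcer1g at 5.69. Klra7 went the other way, with means of 0.474 in Ctrl and 0.675 with DMF, and Klra8 and Klra9 had no reads. The 5 markers of NKT and γδ T cells in the table, of a list of 8, were all below the minimum and summed to 23.9 to 31.3 normalized counts in Ctrl, 13.6 to 26.4 with DMF and 17.1 to 25.3 with DMF + GSH. Of these 5, 2 did not overlap between Ctrl and DMF (Zbtb16 and Tcrg-C4, both lower with DMF), Tcrg-C1, Tcrg-C2 and Sox13 overlapped, and the mean of Sox13 was 5.34 in Ctrl and 7.59 with DMF. Of the 11599 genes above the minimum 41.3% did not overlap in this comparison. The part of either list in the difference of Klrb1f was not tested.

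Klrb1c, which encodes NK1.1, was close to absent. It had 2, 1 and 2 reads in Ctrl, 0 in all 3 DMF libraries and 2, 1 and 0 with DMF + GSH. A count of 0 in 34625286 reads with DMF allows up to 3 reads, which covers counting error only, against 5 reads in 29662074 of Ctrl. No fold is given at this depth.

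**Figure D1:**
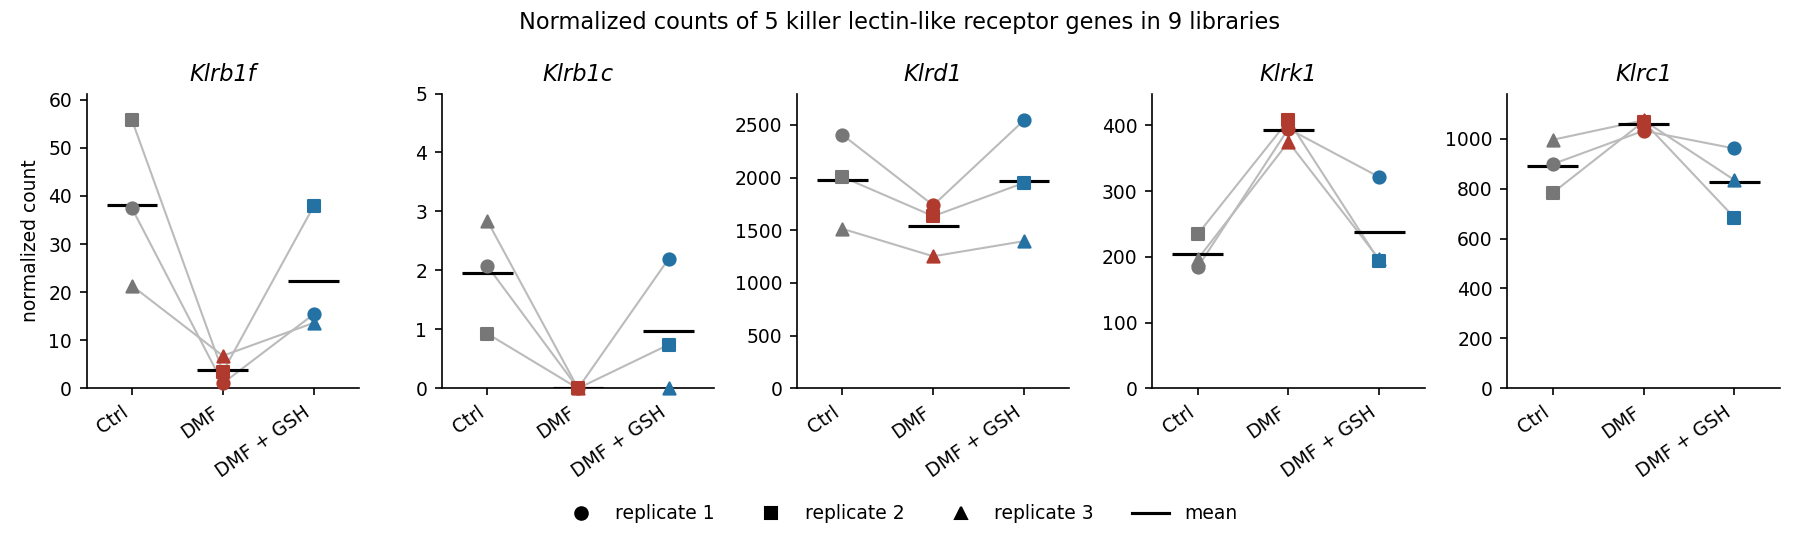
Normalized counts (vertical axis from 0, a scale per gene) of the 5 genes in Ctrl, DMF and DMF + GSH; each symbol is a library, grey lines join libraries of a replicate number and black bars are group means. Klrb1f lies at 1.06 to 6.77 with DMF against 21.3 to 55.7 in Ctrl, Klrk1 at 375 to 407 against 184 to 234, and Klrb1c has 0 reads in each DMF library.

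Klrk1, the NKG2D gene, differed in the opposite direction. Its normalized counts in Ctrl were 184 in replicate 1, 234 in replicate 2 and 196 in replicate 3. The DMF libraries had 395, 407 and 375 in this order, and those of DMF + GSH 321, 194 and 196. All DMF libraries were above all others. With DMF + GSH replicates 2 and 3 were within the Ctrl range, while replicate 1 lay between Ctrl and DMF.

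The mean of Klrk1 was 205 ± 26.1 normalized counts (SD, n = 3) in Ctrl, 392 ± 16.6 with DMF, which is 192% of Ctrl, and 237 ± 72.9 with DMF + GSH, which is 116%. The log2 difference of DMF from Ctrl was 1.10, 0.80 and 0.93 within the numbers, on average 0.94 ± 0.15 (SD, n = 3), and 189 genes had a higher value. From DMF to DMF + GSH it was −0.30, −1.07 and −0.93, on average −0.76 ± 0.41. Between DMF + GSH and Ctrl it was 0.80, −0.27 and 0.00, a mean of 0.18 ± 0.56 that turned to −0.10 without DMF + GSH replicate 1 and to −0.02 without Ctrl replicate 1. Without Ctrl replicate 3 the DMF difference was 0.94.

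Klrd1, the CD94 gene, was the most abundant member. In Ctrl it had 2406, 2007 and 1514 normalized counts. In DMF libraries it was 1737, 1634 and 1253, in those of DMF + GSH 2544, 1950 and 1397. Replicate 1 was the highest and replicate 3 the lowest of each group. The groups overlapped, although DMF was the lowest within each number.

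The Klrd1 mean was 1976 ± 447 (SD, n = 3) in Ctrl, 1542 ± 255 with DMF (78.0% of Ctrl) and 1964 ± 573 with DMF + GSH. The log2 difference of DMF from Ctrl was −0.47, −0.30 and −0.27, a mean of −0.35 ± 0.11 (SD, n = 3), and −0.46 without Ctrl replicate 3. From DMF to DMF + GSH it was 0.55, 0.26 and 0.16, a mean of 0.32 ± 0.20. DMF + GSH differed from Ctrl by a mean of −0.03 ± 0.10, with values on both sides of 0.

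Klrc1, the NKG2A gene, had 898, 783 and 995 normalized counts in Ctrl. The DMF libraries had 1031, 1068 and 1073, those of DMF + GSH 960, 684 and 834. The DMF libraries were the 3 highest, by a small margin over Ctrl replicate 3, and lay closer together than those of the other groups. The means were 892 ± 106 (SD, n = 3), 1058 ± 22.8 and 826 ± 139, so that DMF stood at 119% of Ctrl. The log2 difference of DMF from Ctrl was 0.20, 0.45 and 0.11, a mean of 0.25 ± 0.18 (SD, n = 3), and 0.36 without Ctrl replicate 3. From DMF to DMF + GSH the mean was −0.37 ± 0.27, and from Ctrl to DMF + GSH −0.12 ± 0.19. Without Ctrl replicate 3 this last value was −0.01 for Klrc1, −0.14 for Klrd1 and 0.18 for Klrk1.

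Of the 4 members above the minimum, Klrb1f, Klrk1 and Klrc1 did not overlap between DMF and Ctrl, nor between DMF + GSH and DMF. Among all 11599 genes 41.3% did not overlap in the first comparison and 38.3% in the second, and nothing is read from the members' count because they were chosen on these values. Between DMF + GSH and Ctrl all 4 members overlapped, and 4.47% of all genes did not. The comparisons share libraries and are given side by side for that reason. Over all genes the quartiles of the log2 difference of DMF from Ctrl were −0.24 and 0.23, around a median of 0.01.

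**Figure D2:**
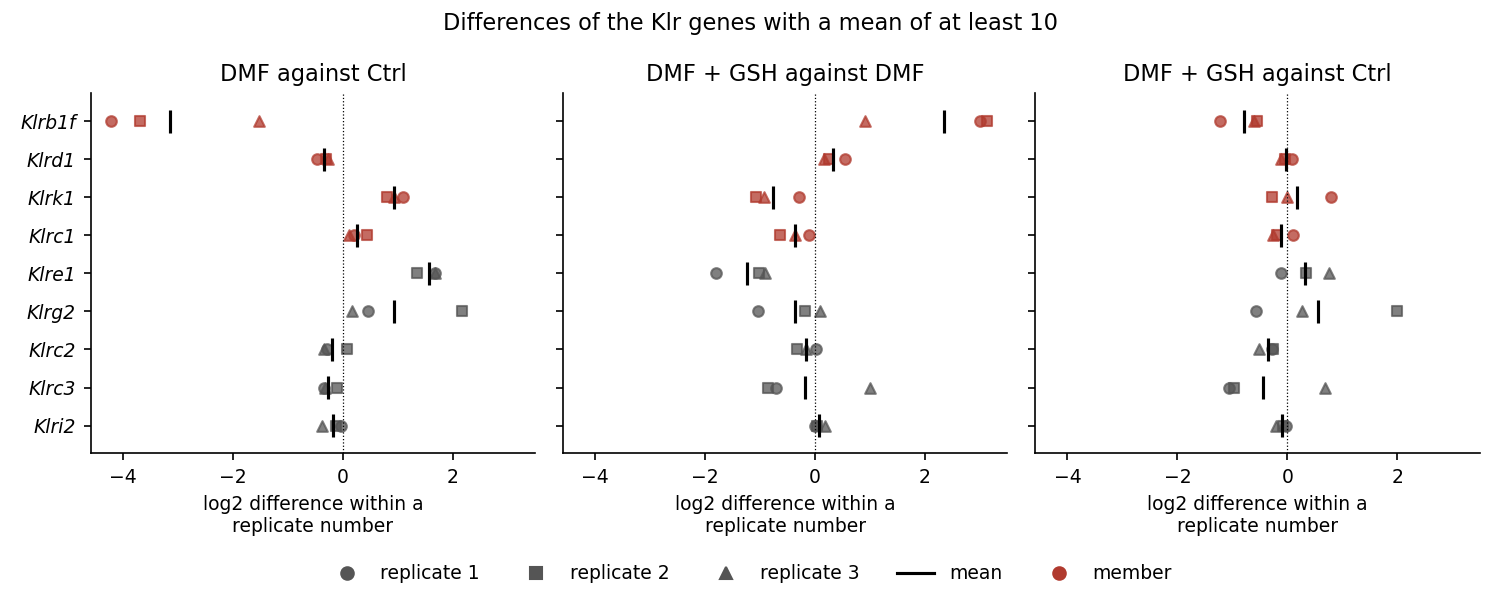
Log2 differences of normalized count + 1 within each replicate number (symbols) with their mean (black bar) for the 4 members (red) and the 5 other Klr genes with a mean of at least 10 (grey), in 3 comparisons. Klrb1f (mean −3.14) and Klre1 (mean 1.57) lie at the ends for DMF against Ctrl, and for DMF + GSH against Ctrl the 4 members have means between −0.80 and 0.18.

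To set the genes side by side, levels were divided by the length of their merged exons. In Ctrl the order was Klrd1 with 1542 ± 349 normalized counts per kb (SD, n = 3), Klrc1 with 450 ± 53.6, Klrk1 with 28.5 ± 3.64, Klrb1f with 18.8 ± 8.50 and Klrb1c with 0.659 ± 0.326. The levels of Klrk1 (25.6 to 32.6 per kb) and Klrb1f (10.5 to 27.5) overlapped in Ctrl, and the other neighbours did not. Klrk1 has long annotated isoforms, and per kb of the longest protein-coding transcript, a length chosen after seeing the data, its Ctrl level was 64.0 ± 8.17 and that of Klrb1f 22.4 ± 10.1, in the same order. With DMF Klrk1 stood at 54.6 ± 2.31 per kb of merged exons and Klrb1f at 1.85 ± 1.42.

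The balance of the RNAs for the chains of the CD94/NKG2A receptor differed within every replicate number, and no protein was measured in these libraries. The ratio of Klrc1 to Klrd1 per kb was 0.241, 0.252 and 0.424 in Ctrl. The DMF libraries had 0.383, 0.422 and 0.553, those of DMF + GSH 0.244, 0.226 and 0.386. It was higher with DMF than in Ctrl and DMF + GSH of the same number, while the groups overlapped through replicate 3 of Ctrl and DMF + GSH. Without Ctrl replicate 3 the Ctrl ratios, 0.241 and 0.252, were below all DMF ratios. Per kb, the NKG2A gene stayed below the CD94 gene in each of the 9 libraries.

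The ratio of Klrk1 to the DAP10 gene Hcst per kb ranged from 0.282 to 0.514 in Ctrl, from 0.720 to 0.937 with DMF and from 0.295 to 0.772 with DMF + GSH. The DMF libraries were all above the Ctrl libraries, and 1 DMF + GSH library was within the DMF range. Hcst itself had 57.5 ± 16.7 normalized counts (SD, n = 3) in Ctrl and 48.1 ± 5.16 with DMF, a log2 fold change of −0.21 (SE 0.261, adjusted p = 0.561, limma). Ctrl replicate 3 had its lowest value, 38.4, against 65.5 and 68.7 in the other Ctrl libraries, and the highest Ctrl ratio, 0.514.

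**Figure D3:**
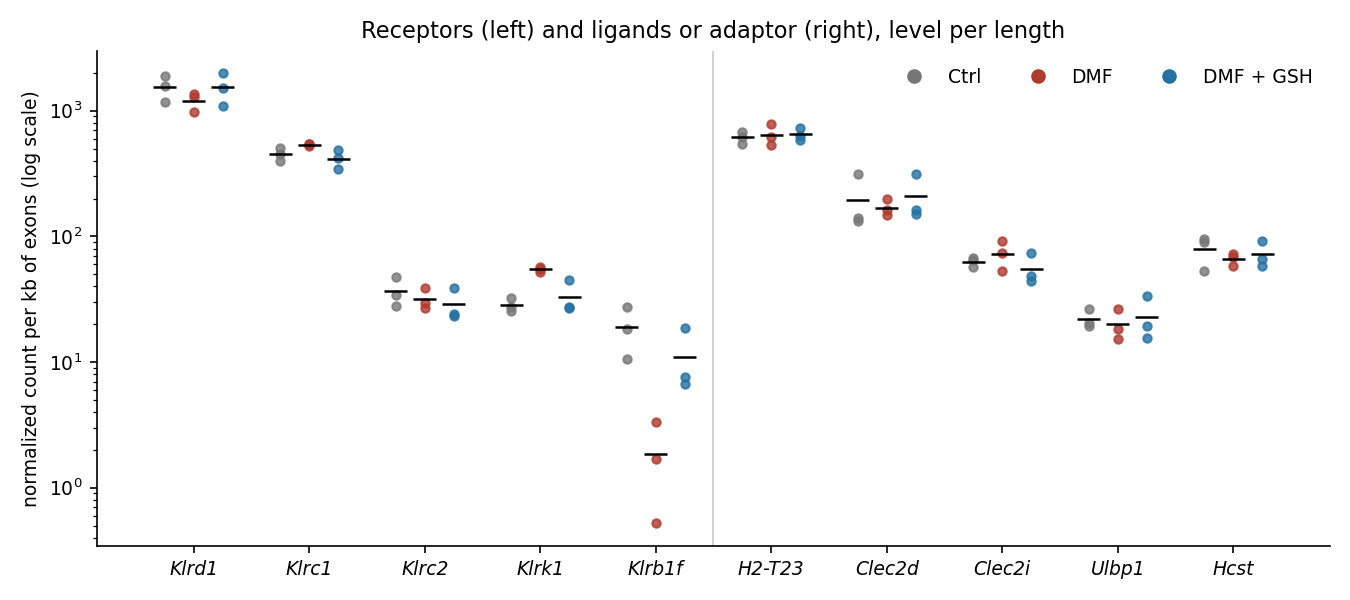
Normalized count per kb of merged exons (log axis) in Ctrl, DMF and DMF + GSH for receptor genes left of the line and for ligand genes and the adaptor gene Hcst right of it; points are libraries and black bars group means. Klrd1 and Klrc1 are the most abundant receptors, the DMF points of Klrb1f (mean 1.85 per kb) lie below its Ctrl points (mean 18.8), and those of Klrk1 (mean 54.6) above (mean 28.5).

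The rest of the Klr family was set beside the members, as a list that was likewise chosen with results of these data known. Of 25 further rows whose symbol starts with Klr, 5 reached the minimum (Klrc2, Klrc3, Klre1, Klrg2 and Klri2). The other 20 had at most 3 reads in a library and 7 of them none at all, among them all 14 Klra rows (the Ly49 receptors) at no more than 3 reads. The 5 other Klrb1 rows, among them Klrb1c and the gene of the inhibitory NKR-P1B (Klrb1b), had at most 2 reads in a library, so that Klrb1f was the only NKR-P1 gene above the minimum in these cultures.

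A gene passed the test when its adjusted p was below 0.01 and its log2 fold change was 0.75 or more in either direction. In limma 0 of the 5 further Klr genes passed for DMF against Ctrl, as did 0 in edgeR and in DESeq2, with 1 at an unadjusted p under 0.05 in each. Of all genes 2.89% passed and 41.5% had an unadjusted p under 0.05 in limma. With the replicate number as a block 1 passed, Klre1, where 6.8% of all genes passed. Klre1 encodes a receptor that pairs with KLRI1 or KLRI2. It had 7.28, 7.43 and 9.95 normalized counts in Ctrl. The DMF libraries had 25.4, 20.5 and 33.9, those of DMF + GSH 6.60, 9.65 and 17.5, so that DMF did not overlap the other groups. The log2 fold change with DMF was 1.57 (SE 0.359, adjusted p = 0.0136, limma, and 0.000922 under the block, with 0.000922 to 0.0907 over all alternatives), from 22 reads in Ctrl and 83 with DMF, and DESeq2 gave it no adjusted p.

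Klri2, the partner gene of Klre1, had 98.0 ± 2.04 normalized counts (SD, n = 3) in Ctrl and 87.0 ± 9.96 with DMF, a log2 fold change of −0.18 (adjusted p = 0.339, limma). Klrc2 had 212 ± 57.6 and 184 ± 35.5 (−0.19, adjusted p = 0.256, limma) and Klrc3 23.1 ± 12.7 and 19.2 ± 10.2 (−0.26, adjusted p = 0.686). Klrg2 ranged from 0.929 to 13.5 in Ctrl and from 7.70 to 19.0 with DMF (0.94, adjusted p = 0.338, limma), with Ctrl replicate 2 at 1 read, and its value was 0.02 without that library and 1.57 without Ctrl replicate 3. That of Klrc3 ran from −0.65 without Ctrl replicate 3 to 0.16 without DMF replicate 3, so that its direction is not settled. Leaving out a library gave −0.27 to −0.11 for Klrc2, the latter without Ctrl replicate 3, and −0.23 to −0.10 for Klri2, the latter without DMF replicate 3. The median of the 5 was −0.18 against 0.01 over all genes.

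For DMF + GSH against DMF 0 of these 5 genes passed in limma, edgeR and DESeq2, with 1 at an unadjusted p under 0.05 in each, and 0.543% of all genes passed in limma, with 37.9% at that unadjusted p. Klre1 was lower with DMF + GSH, by −1.24 (SE 0.359, adjusted p = 0.0356, limma), and passed with the block (adjusted p = 0.00633), where 5.69% of all genes did. For DMF + GSH against Ctrl 0 passed in limma, edgeR and DESeq2, with 1 at an unadjusted p under 0.05 in each (Klrc2, −0.35), and 0% of all genes passed in limma, with 1.91% at that unadjusted p.

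Ligands, adaptors and signalling genes of these receptors were taken from a list of 29, of which 25 were in the table and 14 reached the minimum. None passed for DMF against Ctrl in limma (0 of 14, 4 at an unadjusted p under 0.05), nor in edgeR (4) or DESeq2 (3), where 2.89% of all genes passed and 41.5% had an unadjusted p under 0.05 in limma. Of the 14, 8 were above 0 and 6 below, with a median of 0.05 and a range from −0.45 to 0.26. For DMF + GSH against DMF 0 passed as well, with 3 at an unadjusted p under 0.05 in limma, edgeR and DESeq2 each, against 0.543% and 37.9% of all genes in limma.

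Among the ligands, H2-T23, which encodes Qa-1b, the ligand of CD94/NKG2A, had 1771 ± 203 normalized counts (SD, n = 3) in Ctrl, 1867 ± 368 with DMF and 1868 ± 218 with DMF + GSH (0.06 for DMF against Ctrl, adjusted p = 0.748, limma). Clec2i, the gene of Clr-g, a ligand of NKR-P1F, had 195 ± 15.7, 227 ± 60.3 and 172 ± 48.7 (0.18, adjusted p = 0.516, limma). Clec2d, the gene of Clr-b, had 236 ± 123, 205 ± 31.0 and 252 ± 110 (−0.10, adjusted p = 0.835), with replicate 2 highest in all 3 groups.

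For NKG2D ligands, Ulbp1 had 149 ± 25.4 normalized counts (SD, n = 3) in Ctrl and 134 ± 38.4 with DMF (−0.17 on the log2 scale). H60b, another one, was just below the minimum with a mean of 9.08 and was not tested. It had 15.6, 13.0 and 9.95 normalized counts in Ctrl. DMF libraries had 2.12, 4.28 and 2.90, those of DMF + GSH 18.7, 7.42 and 7.78. Its DMF libraries lay below all others, on 10 reads in all against 36 in Ctrl, and 133 of its exon bases are shared with Raet1e.

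Tyrobp, the gene of the adaptor DAP12 that the activating CD94 receptors need, had 0, 0 and 9.95 normalized counts in Ctrl, the last in the replicate with the myeloid markers, and at most 2.20 in the other groups. Zap70, a kinase downstream of T cell and NK receptors, had 4530 ± 347 (SD, n = 3) in Ctrl, 3334 ± 392 with DMF and 4448 ± 512 with DMF + GSH, a log2 fold change of −0.45 (SE 0.101, adjusted p = 0.0132, limma) below the required size. Lck, the kinase upstream of it, had −0.25 (adjusted p = 0.0341, limma), and Ptpn11, which encodes the phosphatase SHP-2 recruited by NKG2A, 0.26 (adjusted p = 0.0360, limma).

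Other receptors that T cells share with NK cells were counted in a list of 12, with 11 in the table and 7 above the minimum. For DMF against Ctrl 1 of 7 passed in limma, where 2.89% of all genes did, and 2 of 7 with the block, where 6.8% did. Tigit, an inhibitory receptor gene, rose from 307, 412 and 344 normalized counts in Ctrl to 818, 758 and 748 with DMF, and it had 370, 470 and 381 with DMF + GSH. All DMF libraries were above all others. Its log2 fold change was 1.14 (SE 0.119, adjusted p = 0.00173, limma) with DMF and −0.93 (adjusted p = 0.00646) from DMF to DMF + GSH. The call for DMF against Ctrl was lost without Ctrl replicate 1, DMF replicate 1 or DMF replicate 3, with fold changes of 1.05, 1.02 and 1.19. That for DMF + GSH against DMF was lost without any of these 3 libraries or without DMF + GSH replicate 1 or 2, at −0.93, −0.81, −0.98, −0.90 and −1.03.

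Slamf6, a receptor gene of the SLAM family, had 507, 618 and 408 normalized counts in Ctrl. In DMF libraries these were 280, 318 and 187, in those of DMF + GSH 506, 489 and 331. Its log2 fold change was −0.98 (SE 0.224, adjusted p = 0.0136, limma, and 7.89e-08 under the block), and it passed under the block, in DESeq2 and without Ctrl replicate 3 (−1.11, adjusted p = 0.00985, limma). From DMF to DMF + GSH it was 0.76 (adjusted p = 0.0372, limma, and 1.85e-06 under the block). Crtam had 0.54 (adjusted p = 0.0313, limma). Cd160 (−0.37, adjusted p = 0.254, limma, and 0.00302 under the block) and Cd96 (−0.33, adjusted p = 0.203, limma, and 0.00388 under the block) stayed below the required size. Cd226 had 0.09 and Slamf7 0.21 (adjusted p = 0.438 and 0.578, limma).

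The members' neighbours on the chromosome were examined because the receptor genes lie next to each other. The run of Klr and Clec2 genes around the members, with gaps under 1 Mb, spans 2.64 Mb with 35 such genes, and 95 genes of the table lie in it or within 200 kb. Of these 19 reached the minimum, the 4 members and 15 others. For DMF against Ctrl 10 of the 15 were above 0 and 5 below, with a median of 0.35 against 0.01 over all genes. In limma 1 passed, Ybx3 (0.81, adjusted p = 0.00722), which lies 2343 kb from Klrb1f, and with the block Klre1 and the long noncoding RNA gene Gm26656 (1.47, adjusted p = 0.0204, and 0.00483 with the block) did as well. These are 1 and 3 of 15 genes, against 2.89% and 6.8% of all genes.

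Log2 differences of DMF from Ctrl on both sides of 0 were found side by side. Klre1 (1.57), Klrd1 (−0.35), Klrk1 (0.94), Klrc3 (−0.26), Klrc2 (−0.19), Klrc1 (0.25) and Klri2 (−0.18) follow each other within 532 to 695 kb of Klrb1f, and of the non-members among them Klre1 passed under the block and Klrc3, Klrc2 and Klri2 did not pass, Klrc3 turning to 0.16 without DMF replicate 3. Klrb1f itself had Clec2i (0.18) and Clec2d (−0.10) as its nearest neighbours above the minimum that belong to the Clec2 genes, whose starts lie at −158 and 135 kb from its own. Cd69, an early activation marker 230 kb away, had 0.38 (SE 0.0810, adjusted p = 0.0105, limma).

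**Figure D4:**
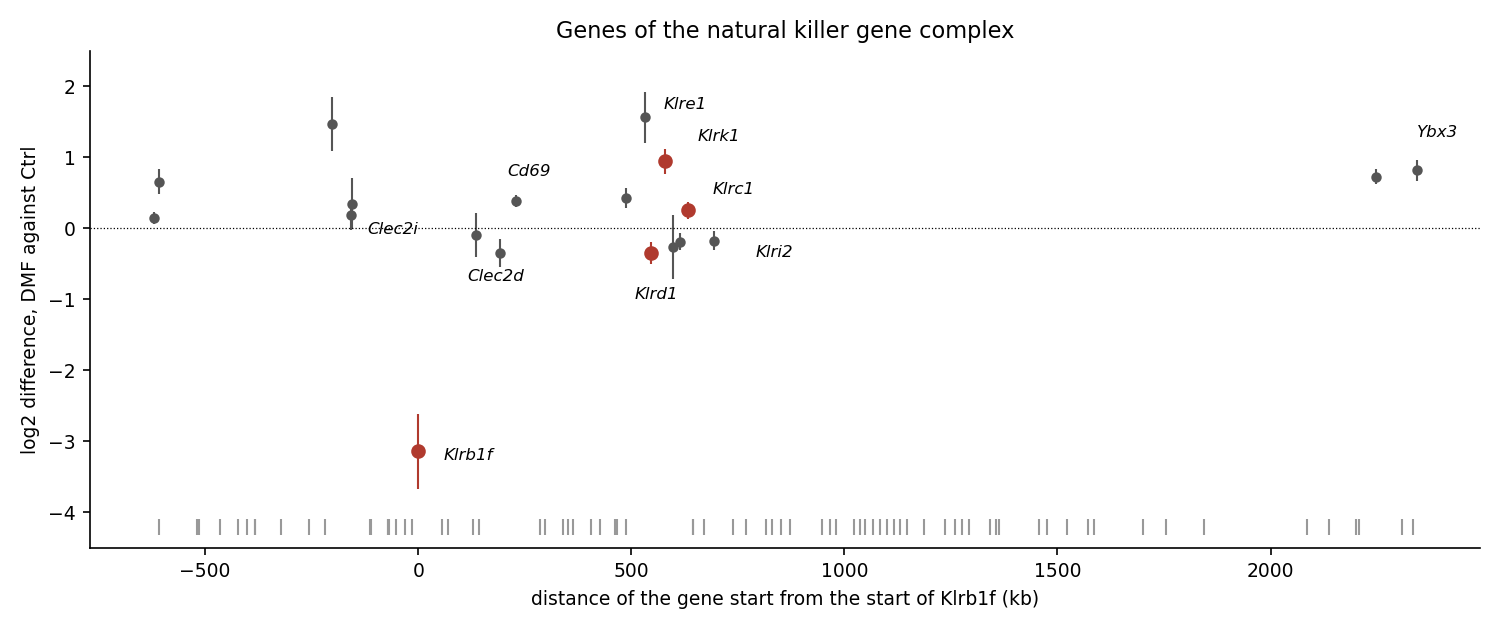
Log2 difference of DMF against Ctrl (points, with the standard error of the limma fit) for 19 genes of the natural killer gene complex and its flanks against the distance of their start from that of Klrb1f; members in red, other genes in grey, and ticks at the bottom mark genes below the minimum. Klrb1f at −3.14 is the lowest, and the other genes lie between −0.35 and 1.57.

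Genes with the pattern most like each member over the 9 libraries were listed by Pearson's r of log2 values, a description in which all points share the libraries and groups. For Klrb1f they were Birc5 (r = 0.990), which encodes the mitotic protein survivin, Baz2a (0.984) and Zfp12 (0.983), whose differences were far smaller, Birc5 having 1876 normalized counts on average in Ctrl and 1543 with DMF. For Klrk1 they were Dnmt3a (0.959), a DNA methyltransferase gene, Ppp4r2 (0.936) and Tnfrsf21 (0.935). Ifi203 (0.985), Bach1 (0.976) and Gm1966 (0.974) were most like Klrd1, and Hus1 (0.954), Ripk2 (0.949) and Cdc6 (0.946) most like Klrc1.

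Among the members themselves r over the 9 libraries was −0.82 for Klrb1f and Klrk1, −0.73 for Klrb1f and Klrc1, 0.71 for Klrk1 and Klrc1, and 0.42 for Klrb1f and Klrd1. It was −0.33 for Klrd1 and Klrc1, the genes of the CD94/NKG2A pair, and −0.20 for Klrd1 and Klrk1.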

How the data were processed

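RNA-Seq of 9 libraries of murine Tc17 cells was used. Single reads of 50 bp were obtained by the authors, who aligned to GRCm38 with STAR 2.4.0b (submitters' processing notes), counted them per gene with featureCounts, and deposited a signal per gene, the read count divided by a size factor of the library (normalized count). Strand use and the handling of reads shared between genes are not given in the sources used here. Every value above 0 was a whole multiple of the library's smallest step (tolerance 0.01), which gave the reads. The authors' columns comparing Ctrl with DMF (fold change, p-values) were not used.

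The test was limma-trend (limma 3.58.1, R 4.3.3) on log2(normalized count + 1), as 1 fit of the 9 libraries with group and preparation batch, over genes with a mean of at least 10 (11599 of 41388), with Benjamini-Hochberg adjustment. Passing required an adjusted p below 0.01 with a log2 fold change of 0.75 or more in either direction. Fold changes on this scale understate those of low genes. The fit was tested on simulated data. Alternatives were pseudocounts of 0.5 and 4, no minimum, TMM rescaling, no batch term, a replicate block, only the 6 libraries compared, each library left out, and edgeR 4.0.16 and DESeq2 1.42.0 on the recovered reads, 100% of which came out whole. The design had foreseen a count test only for raw counts.

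Deviations from the group means were correlated between libraries of a replicate number (r over genes 0.447 to 0.578 in 9 pairs). In 18 pairs with different numbers r was −0.471 to −0.0621, which adds no separate evidence because the deviations of a group sum to 0. The numbers were taken to pair the samples for the differences within numbers. The main fit held only the batch, and the replicate block was an alternative.

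The members and all gene lists were chosen with earlier results of these data known. Genes named are the members, all Klr genes, the lists of ligands, adaptors and signalling genes and of other NK-associated receptors, the 3 genes most like each member, and genes of the natural killer gene complex. The complex was to run over all Klr and Clec2 genes of chromosome 6, but Klrg2 and Klrg1 lie far apart from the rest, and the run with gaps under 1 Mb was used, chosen after seeing positions. H60b, Klrk1 isoform lengths and the myeloid genes of Ctrl replicate 3 were singled out after their values were seen. Positions are from GENCODE vM21 (40254 of the gene IDs matched) and promoter windows from RefSeq. Python 3.11.15 with NumPy 2.4.6 and pandas 2.3.3 made the tables, and Matplotlib 3.10.9 the figures. One marker list and 1 motif are not reported here.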

Additional observations from a re-analysis of the deposited data

How the results depend on the processing

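The log2 differences of the 4 members kept their direction for DMF against Ctrl and for DMF + GSH against DMF under every alternative run. Leaving out 1 library at a time gave −3.65 to −2.71 for Klrb1f, −0.48 to −0.24 for Klrd1, 0.75 to 1.08 for Klrk1 and 0.17 to 0.36 for Klrc1 (DMF against Ctrl), 1.91 to 2.75, 0.22 to 0.48, −1.04 to −0.66 and −0.49 to −0.25 (DMF + GSH against DMF), and −1.30 to −0.39, −0.14 to 0.14, −0.10 to 0.32 and −0.24 to 0.00 (DMF + GSH against Ctrl), so that the last 3 crossed 0 there. Per kb of the longest protein-coding transcript Klrd1 stood at 2150 in Ctrl and Klrk1 at 64.0.

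The number of genes passing was 335 for DMF against Ctrl and 63 for DMF + GSH against DMF. It was 554 and 384 in DESeq2, 43 and 5 with only the 6 libraries compared, 28 for the second comparison without the batch term and 273 with no minimum. With the replicate block it was 789 and 660, and 1 for DMF + GSH against Ctrl. Without 1 library it ranged from 2 to 680 and from 0 to 480. Of the further Klr genes 0 passed, 1 with the replicate block in either of the 2 comparisons, and 0 to 1 without 1 library (DMF against Ctrl). Of the other NK-associated receptor genes 1 passed, 2 in DESeq2, with the replicate block (both comparisons) or with no minimum (DMF against Ctrl), and 0 with only the 6 libraries (DMF + GSH against DMF). Without 1 library it was 0 to 2 and 0 to 1. Leaving out 1 library turned the direction of 2 genes that had not passed. Klrc3 ranged from −0.65 to 0.16 for DMF against Ctrl (0.00 without Ctrl replicate 2, 0.16 without DMF replicate 3) and from −0.61 to 0.16 for DMF + GSH against DMF (0.16 without DMF replicate 2, 0.10 without DMF + GSH replicate 1), and Klrg2 from −0.84 to 0.074 for the latter (0.074 without DMF + GSH replicate 1). Within the 3 lists the block changed no call other than those of Klre1 and Slamf6. The causes of these shifts were not tested. Depth limits Klrb1f, Klrb1c, Klre1 and H60b, which rest on a few reads per library.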
